A study of Homo sapiens with 9 samples.

Results

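SOCS1, SOCS2, SOCS3, CISH, PIM1, PIM2, PIM3, BCL6 and MYC were examined as a set of genes that respond to cytokines through JAK kinases and STAT factors. The members were matched by gene symbol, and the set was proposed with earlier results of these data known. All 9 members of the 17687 genes with a symbol on the array were found, each with 1 row. Total RNA of L-1236, an established line of Hodgkin lymphoma cells, was hybridised to human Clariom S arrays, with 3 arrays in each of 3 groups. All groups carried the lentiviral Cas9 vector. The control cells (v2, genotype lentiCRIPSPR_v2) are labelled wild type and have no guide in their label. In clone g2_1 (lentiCRIPSPR_v2-LTA_g2) the guide targeted the second exon of LTA, which encodes the cytokine lymphotoxin alpha, and in clone g3_4 (lentiCRIPSPR_v2-LTA_g3) it targeted the fourth.

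Each knockout group is 1 single-cell clone. Conditioned medium of L-1236 cells was used to maintain the clones, and the last 72 h before RNA extraction were spent in normal medium by control and clones alike. Whether control cells had also been kept in conditioned medium, or were a clone, is not stated in the labels. An effect of LTA, of single-cell cloning and of the earlier medium therefore cannot be told apart against control. No label states that the 3 arrays of a group stem from different cultures. P-values here measure only the spread between these samples, and that spread may be technical.

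Cytokine receptors without kinase activity of their own recruit JAK kinases, which phosphorylate STAT factors, and these enter the nucleus and switch on target genes. Among the first targets are genes of the SOCS family, whose proteins bind phosphorylated receptors or JAKs through an SH2 domain and can bring them to ubiquitin ligases, so that the signal limits itself. Genes of the PIM kinases, BCL6 and MYC are targets of the same pathway that act on survival, growth and cell identity. In Hodgkin lymphoma, JAK-STAT signalling is known to be active in the tumour cells, and SOCS1 is known as a gene that is often mutated in them.

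STAT dimers are known to bind sites of the form TTCNNNGAA, which reads the same on both strands. Of the members, 7 had at least 1 promoter entry from RefSeq (assembly GRCh38.p14), and these were searched over the 250 bases before the start of the gene. The promoters of CISH and PIM1 are shown because these members rose most in the clones and one holds several matches while the other holds none. Capitals mark matches to the motif. CISH lies on the minus strand (chr3:50611775-50612024) and PIM1 on the plus strand (chr6:37169902-37170151), and both sequences read 5′ to 3′ towards the gene.
CISH: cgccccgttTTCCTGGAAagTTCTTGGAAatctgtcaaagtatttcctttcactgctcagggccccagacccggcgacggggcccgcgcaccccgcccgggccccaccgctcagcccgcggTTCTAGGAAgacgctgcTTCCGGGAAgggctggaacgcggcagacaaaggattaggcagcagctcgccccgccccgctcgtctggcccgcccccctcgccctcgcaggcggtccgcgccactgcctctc
PIM1: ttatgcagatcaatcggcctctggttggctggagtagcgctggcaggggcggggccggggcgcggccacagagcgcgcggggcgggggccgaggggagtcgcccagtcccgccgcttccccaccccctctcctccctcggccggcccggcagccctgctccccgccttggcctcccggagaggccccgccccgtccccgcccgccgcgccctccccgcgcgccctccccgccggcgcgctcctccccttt

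The CISH promoter held 4 matches, in 2 pairs, at 241 to 233, 230 to 222, 129 to 121 and 112 to 104 bases before the start. Among 35116 promoter entries of this length, 6.57% held at least 1 match and 5 entries (0.0142%) held at least 4. An upstream start of BCL6 had 1 match (TTCCGAGAA). The windows of PIM1, SOCS1, PIM2, PIM3, both starts of SOCS3 and the other start of BCL6 had 0. The form with 4 bases between TTC and GAA, which STAT6 is known to prefer, had 0 matches in any of these windows and was present in 5.38% of all entries. These counts describe letters in a short window only.

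The labels were checked first. The mean log2 signal of LTA was 11.24 ± 0.29 (SD, n = 3) in the control group, and it fell by 3.71 in g2_1 (to 7.54 ± 0.43) and by 4.31 in g3_4 (to 6.93 ± 0.32). The 10 markers of Hodgkin cells averaged 9.95 to 10.36 per array, and TNFRSF8, which encodes their defining antigen CD30, stood at 11.11 in control cells. In both clones 1 of these markers rose and 2 fell, GATA3 and BATF3. BATF3 lost its call without any 1 of the 6 knockout arrays, control array 1 or control array 2 (adjusted p up to 0.128), 2 markers rose without g3_4 array 1 or control array 2, and 3 rose and 1 fell with arrays centred on their median. Of 5 B cell genes, BLK rose and PAX5 fell, and BLK lost its call without g2_1 array 2 or 3, any 1 g3_4 array or control array 3 (adjusted p up to 0.0887) and with only the groups compared in the fit. The B cell list averaged 6.84 to 7.01 per array, and 4 of its 5 genes had means above the first quartile of 4.64 in every group. The exception was MS4A1, which encodes CD20, with group means of 4.38 to 4.40, under that first quartile over all tested values. Of 5 T cell genes 1 rose, CD2, with a mean of 9.40 in g2_1 and 9.35 in g3_4 against 7.82 in control cells. The T cell list, CD2 included, averaged 5.01 to 5.23 per array in control and 5.37 to 5.44 in the clones. Its median log2 fold change in the clones averaged was -0.07. The T cell receptor genes CD3D, CD3E and CD3G had group means of 4.03 to 4.88, and 6 macrophage genes averaged 5.78 to 6.06 per array. Among the latter, CD68 stood 0.69 above control in the clones averaged (log2, adjusted p = 0.0234). It passed in g3_4 (adjusted p = 0.0401) and not in g2_1 (0.0723), and passed in both after centring (0.0206 and 0.0337), while CD14 had group means of 5.27 to 5.32. As background to these counts, 4.48% of all transcript clusters rose and 6.97% fell in both clones. The part of these markers in the results was not tested. In bulk RNA, fewer cells of a type and less RNA per cell cannot be told apart.

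Values are log2 signals, and a gene was called where limma's two-sided test gave an adjusted p under 0.05 over 20893 transcript clusters. With the clones averaged against control, 5 of the 9 genes were called, all higher: PIM1, CISH, SOCS3, SOCS2 and SOCS1. PIM2, PIM3, BCL6 and MYC were not called. Of all transcript clusters, 18% were called in that comparison and 8.13% were called higher. In both clones the same way, 4 of the 9 genes were called, all higher, against 11.4% of all transcript clusters in either direction and 4.48% higher. With each array centred on its median, 5 of the 9 were called higher in both clones, against 8.37% of all transcript clusters. Centring also turned the balance of all calls in both clones, of which 39.1% were higher as deposited and 59.8% after centring. By clone, 5 members were called higher in g2_1, against 14.3% of all transcript clusters in either direction and 6.19% higher. In g3_4, 4 members were called higher, against 14.3% in either direction and 6.12% higher. Only PIM1 was called with a log2 fold change of at least 1, which 4.17% of all transcript clusters reached with the clones averaged. The median log2 fold change of the 9 genes was 0.39, against 0.04 for all transcript clusters. Both clones are compared with the same 3 control arrays, so their changes are not independent.

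**Figure D1:**
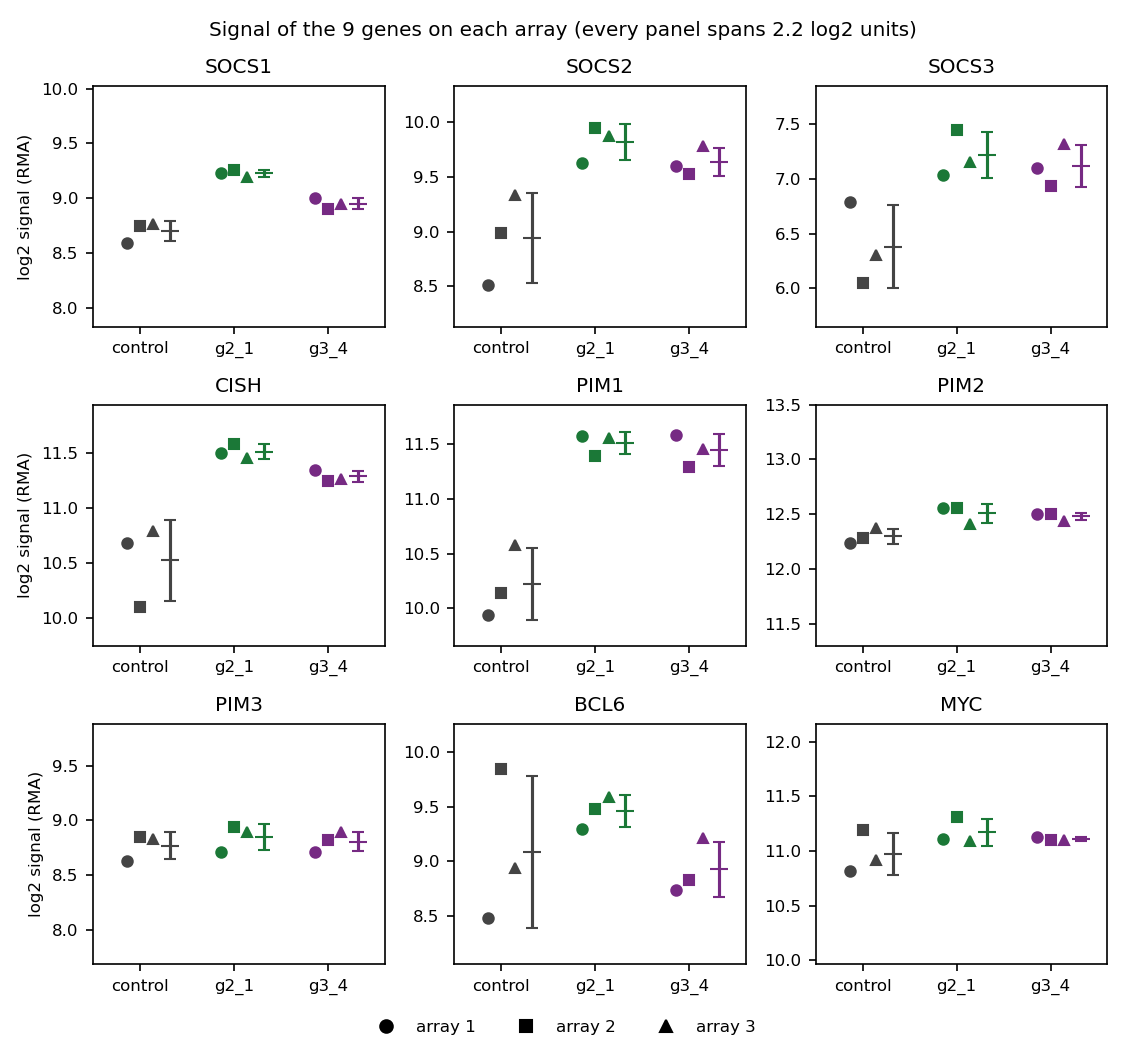
Log2 signal of each gene (vertical axis) on the 3 control arrays, 3 g2_1 arrays and 3 g3_4 arrays, with the array number as the symbol and the mean ± SD of each group beside it. All knockout arrays lie above all control arrays for SOCS1, SOCS2, SOCS3, CISH, PIM1 and PIM2, and the groups overlap for PIM3, BCL6 and MYC.

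CISH encodes the founding SOCS protein, a feedback inhibitor induced by STAT5 that acts on receptors of interleukin-2 and related cytokines. Its log2 signal was 10.68, 10.10 and 10.79 on control arrays 1, 2 and 3, 11.50, 11.59 and 11.46 in g2_1, and 11.35, 11.25 and 11.27 in g3_4. Control array 2 was the lowest, and all knockout arrays lay above all control arrays. CISH rose by 0.99 (log2, SE 0.16, adjusted p = 0.00154) in g2_1 and by 0.77 (SE 0.16, adjusted p = 0.00754) in g3_4, or 1.84-fold in the clones averaged. This is the gene whose promoter holds the 4 motif matches shown above. The windows of PIM1, SOCS1 and SOCS3, also called higher in the clones averaged, had 0 matches. The part of the motif in any of these changes was not tested.

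SOCS3 encodes an inhibitor that binds the gp130 receptor chain and JAKs and is known to limit signals of interleukin-6 and its relatives. On the control arrays its log2 signal was 6.79, 6.05 and 6.31, against 7.04, 7.45 and 7.16 in g2_1 and 7.10, 6.94 and 7.32 in g3_4. The groups did not overlap, although control array 1 lay only a little below g3_4 array 2. SOCS3 rose by 0.83 (log2, SE 0.19, adjusted p = 0.0117) in g2_1 and by 0.74 (SE 0.19, adjusted p = 0.0218) in g3_4. The call in g2_1 was lost without g2_1 array 2 (adjusted p = 0.0571, range over all alternatives 0.000887 to 0.302). The call in g3_4 was lost without g3_4 array 1 (adjusted p = 0.0615), g3_4 array 3 (0.0916), control array 2 (0.0772) or control array 3 (0.0602), with a range of 0.00178 to 0.336 over all alternatives.

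SOCS2 encodes a SOCS protein best known as a brake on growth hormone signalling, and it too is induced by STAT5. SOCS2 had log2 signals of 8.51, 8.99 and 9.33 on the control arrays, 9.63, 9.95 and 9.87 in g2_1, and 9.60, 9.53 and 9.78 in g3_4. Control array 1 was the lowest, and the groups did not overlap. SOCS2 rose by 0.87 (log2, SE 0.18, adjusted p = 0.00842) in g2_1 and by 0.69 (SE 0.18, adjusted p = 0.0275) in g3_4. The call in g3_4 was lost without g3_4 array 1 (adjusted p = 0.0692), g3_4 array 2 (0.0583), g3_4 array 3 (0.104) or control array 2 (0.0608), and without all arrays numbered 1 its log2 fold change was 0.50 (adjusted p = 0.0569). Over all alternatives the adjusted p in g3_4 ranged from 0.00534 to 0.396. The 50 nearest genes above the median level on chromosome 12 had a median log2 fold change of 0.27 in the clones averaged, and their part in the rise was not tested.

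SOCS1 encodes the inhibitor that acts most directly on JAK kinases and restrains interferon and interleukin-4 signals. The control arrays gave log2 signals of 8.59, 8.75 and 8.76 for SOCS1. The clones gave 9.23, 9.26 and 9.19 (g2_1) and 9.0, 8.90 and 8.95 (g3_4). All knockout arrays lay above the control arrays, and g2_1 lay above g3_4. SOCS1 rose by 0.53 (log2, SE 0.09, adjusted p = 0.00270) in g2_1. In g3_4 its log2 fold change was 0.25 (SE 0.09, 95% interval 0.05 to 0.45), which did not pass the test (adjusted p = 0.102). With each array centred on its median, it passed in g3_4 too (0.36, adjusted p = 0.0228, range over all alternatives 0.0228 to 0.360).

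PIM1 encodes a serine/threonine kinase that is constitutively active, is controlled largely through its amount, and phosphorylates proteins of survival and the cell cycle. PIM1 had log2 signals of 9.94, 10.14 and 10.58 on the control arrays, 11.57, 11.39 and 11.56 in g2_1, and 11.58, 11.29 and 11.46 in g3_4. Even the lowest knockout array, g3_4 array 2, lay clearly above the highest control array. PIM1 rose by 1.29 (log2, SE 0.15, adjusted p = 0.000252) in g2_1 and by 1.22 (SE 0.15, adjusted p = 0.000354) in g3_4, or 2.39-fold in the clones averaged (adjusted p = 7.72e-05). The 50 nearest genes above the median level on chromosome 6 had a median log2 fold change of -0.23. No array left out removed the call of PIM1 or CISH in either clone.

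PIM2 and PIM3 encode kinases closely related to PIM1. PIM2 had a log2 signal of 12.24, 12.28 and 12.37 on the control arrays, 12.56, 12.56 and 12.41 in g2_1, and 12.50, 12.50 and 12.44 in g3_4. All knockout arrays lay above all control arrays, by a small margin. The log2 fold change of PIM2 was 0.20 (95% interval 0.02 to 0.37, adjusted p = 0.119) in the clones averaged. It passed with arrays centred on their median (0.31, adjusted p = 0.0189) and with a variance trend and robust fit (adjusted p = 0.0314), with a range of 0.0189 to 0.351 over all alternatives. PIM3 overlapped in all groups, from 8.63 to 8.94, with a log2 fold change of 0.06 (95% interval -0.15 to 0.26). The interval of PIM1 in the clones averaged, 0.96 to 1.55, lies above those of both relatives, and the differences between genes were not tested.

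BCL6 encodes a transcriptional repressor of germinal centre B cells that is known as a STAT target in lymphocytes. Its log2 signal was 8.48, 9.84 and 8.94 on the control arrays, 9.30, 9.48 and 9.59 in g2_1, and 8.74, 8.83 and 9.21 in g3_4. The control arrays spanned the range of both clones, with array 2 highest. BCL6 was not called in g2_1 (0.37, 95% interval -0.24 to 0.98) or in g3_4 (-0.16, 95% interval -0.77 to 0.45). Without control array 2 its log2 fold change in g2_1 was 0.75 and passed (adjusted p = 0.0254, range over all alternatives 0.0254 to 0.903). The 50 nearest genes above the median level on chromosome 3 had a median of 0.51 in g2_1 and 0.26 in g3_4, and their part was not tested.

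MYC encodes a transcription factor of growth and metabolism. Its log2 signal was 10.82, 11.19 and 10.92 on the control arrays, 11.11, 11.31 and 11.09 in g2_1, and 11.13, 11.10 and 11.10 in g3_4. Control array 2 lay within the range of the clones. The log2 fold change in the clones averaged was 0.16 (95% interval -0.06 to 0.38, adjusted p = 0.329).

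**Figure D2:**
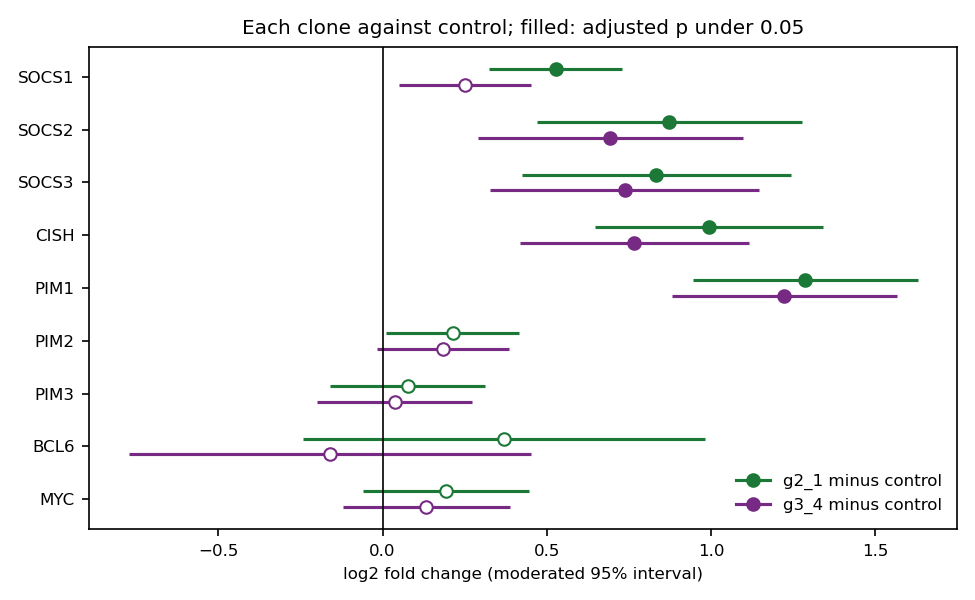
Log2 fold change of each gene against control (horizontal axis) in g2_1 and in g3_4, with the moderated 95% interval as the line and filled points where the adjusted p was under 0.05. PIM1 is farthest to the right, at 1.29 and 1.22, and the intervals of PIM3, BCL6 and MYC include 0 in both clones.

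With all 6 knockout arrays set against the 3 control arrays, 6 of the 9 genes had no overlap, all higher, against 9.70% of all transcript clusters. The exact two-sided permutation p was 0.0119 for SOCS2, SOCS3, CISH, PIM1 and PIM2, the smallest that 84 splits can give, and 0.0238 for SOCS1. It was 0.131 for MYC, 0.524 for PIM3 and 0.762 for BCL6. With 3 arrays against 3 the smallest possible p is 0.1, so a single clone cannot reach 0.05 in this test. The test of 6 against 3 treats the knockout arrays as independent, although each clone gave 3 of them. No share of all transcript clusters is given for the permutation p. A test with unequal variances called few genes at all, 0.148% of all transcript clusters in g2_1, 0.311% in g3_4 and 4.28% in the clones averaged, and 0 members in any comparison. Its adjusted p for PIM1 was 0.210 in g2_1, 0.204 in g3_4 and 0.154 in the clones averaged, which is also the upper end of its range over all alternatives (1.81e-05 to 0.154). At an unadjusted p under 0.05 that test passed 5 members in g2_1, 3 in g3_4 and 4 in the clones averaged, against 15.4%, 15.6% and 18.7% of all transcript clusters. The control SD was larger than both clone SDs for 8 of the 9 genes, which was so for 48.4% of all transcript clusters.

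The order of the control arrays was not shared among the rising genes. PIM1, SOCS2 and SOCS1 were lowest on control array 1, and CISH and SOCS3 on control array 2. BCL6 and MYC were highest on control array 2. Arrays numbered 1 had an RNA integrity number of 10 and the others of 9.5 to 9.6. Without the arrays numbered 1, 5 members were called with the clones averaged and 3 in both clones. In both clones, 3.98% of all transcript clusters were then called higher and 6.51% lower. The share for the clones averaged is not given for that setting.

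Between the clones, 0 of the 9 genes were called in limma, where 0.0526% of all transcript clusters were, and 1 gene, SOCS1, had an unadjusted p under 0.05. In the test with unequal variances 3 had an unadjusted p under 0.05 and 0 were called. No share of all transcript clusters at an unadjusted p is given between the clones, so these counts have no background. All 9 genes had a lower mean in g3_4 than in g2_1, as 49.9% of all transcript clusters had. The difference was -0.28 (95% interval -0.48 to -0.08) for SOCS1, -0.23 (-0.57 to 0.12) for CISH, -0.06 (-0.41 to 0.28) for PIM1 and -0.53 (-1.14 to 0.08) for BCL6. SOCS1, CISH and BCL6 did not overlap between the clones, as 5.99% of all transcript clusters did not in that direction. The 50 neighbours of BCL6 differed by a median of -0.31.

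For each rising gene, the named gene with the most similar profile over the 9 arrays was found, as a description. TTC28 was most like PIM1 (Pearson's r = 0.996), RCAN2, which encodes a regulator of calcineurin, most like CISH (0.995) and VEZT most like SOCS2 (0.985). SEC62, a gene of protein translocation into the endoplasmic reticulum, was most like SOCS1 (0.980) and POLE, which encodes a subunit of DNA polymerase epsilon, most like SOCS3 (0.977). The 9 arrays form groups, so any gene with a clear step between control and clones can reach such values.

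The other genes of the pathway were taken from 12 lists, and a list gene counts as risen or fallen where it was called in both clones the same way, as 4.48% of all transcript clusters rose and 6.97% fell. With arrays centred on their median, the shares were 8.37% and 5.62%, and list counts that differ then are given as centred counts. List counts at an unadjusted p are given without a share of all transcript clusters, so they have no background. Of the 4 remaining SOCS genes, 2 fell and 0 rose (limma, with 0 higher in both clones at an unadjusted p under 0.05 and 0 with unequal variances). Centred, 1 of them fell, and without the arrays numbered 1, 3 fell. SOCS6, whose product binds the stem cell factor receptor KIT, fell by 2.02. Its control mean was 6.41 ± 0.80 (SD, n = 3), and the clones had 4.53 ± 0.23 (g2_1) and 4.24 ± 0.18 (g3_4), both under the first quartile of the array. SOCS4 fell by 0.50, with the call lost in at least 1 clone without g2_1 array 1, any g3_4 array or control array 2 (adjusted p up to 0.0743). The log2 fold change was 0.005 (SE 0.16) for SOCS5 and -0.43 (SE 0.15) for SOCS7. Of 13 other negative regulators of the pathway, among them phosphatases and PIAS proteins, 0 rose and 0 fell in limma, with 2 higher and 2 lower in both clones at an unadjusted p under 0.05. With the clones averaged 2 of them rose and 2 fell, and 1 rose in both clones without control array 3 and 1 when centred. With unequal variances 0 genes of the 12 lists were called in both clones, except 1 ligand gene, lower.

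Among 4 JAK kinases, JAK2 fell by 2.70 (SE 0.17), with a control mean of 8.82 ± 0.06 and clone means of 6.09 ± 0.18 (g2_1) and 6.14 ± 0.45 (g3_4). The log2 fold change of JAK1 was 0.37 (SE 0.09), that of JAK3 0.37 (SE 0.09) and that of TYK2 0.10 (SE 0.09). JAK1 and JAK3 passed in g3_4 (adjusted p = 0.0138 and 0.0231) and did not pass in g2_1 (0.102 and 0.0640). Of the JAK genes 0 rose in both clones, with 2 at an unadjusted p under 0.05. Without control array 3, 1 rose, and centred, 2 rose. Among 5 measured STAT genes, STAT6, the factor of interleukin-4 signalling, fell by 1.03 (SE 0.16). STAT5B, a factor that drives CISH and SOCS2 after interleukin-2, rose by 0.57 (SE 0.13), with the call in both clones lost without any 1 of 8 arrays, all but control array 3 (adjusted p up to 0.136). Centred, 2 STAT genes rose. STAT5A stood 0.20 (SE 0.09) and STAT3 0.17 (SE 0.10) above control on the log2 scale, and neither passed. STAT4 stood 0.93 (SE 0.22) above control, with an adjusted p of 0.0114 in g3_4 and 0.0817 in g2_1.

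Of 25 measured cytokine receptors that use JAKs, 4 rose and 5 fell. IL13RA1, a chain of the interleukin-13 receptor, fell by 5.48 as measured, to clone means of 4.22 (g2_1) and 4.19 (g3_4), both under the first quartile of 4.64. IL5RA, the alpha chain of the interleukin-5 receptor, fell by 5.25, while LIFR, the receptor of leukemia inhibitory factor, rose by 1.66. Of 16 measured ligands, 1 fell and 0 rose (2 higher at an unadjusted p under 0.05, and 1 called higher when centred). IL6, a ligand known to induce SOCS3, fell by 5.65 as measured, with a control mean of 9.73 ± 0.14 and clone means of 4.20 ± 0.12 (g2_1) and 3.96 ± 0.09 (g3_4), also under that quartile. The files hold no detection calls, so for SOCS6, IL13RA1, IL6 and CXCL10, whose clone means lie under the quartile, the measured difference may understate the fall. Of 18 other known STAT targets, 1 rose and 3 fell, and centred, 4 rose and 3 fell. FCER2, the low-affinity IgE receptor, fell by 5.47 and BCL2L1, which encodes the survival protein BCL-XL, fell by 1.42. GADD45G, a stress gene induced by cytokines, rose by 0.88, with the call lost without control array 1 or 2, g2_1 array 2 or 3, or any g3_4 array (adjusted p up to 0.131). Without control array 3, 2 of these targets rose, with array weights 3, with a variance trend and robust fit 3, and with only the groups compared in the fit 0. The median log2 fold change of these targets was 0.10, against 0.39 for the 9 genes, and the lists were not tested against each other.

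**Figure D3:**
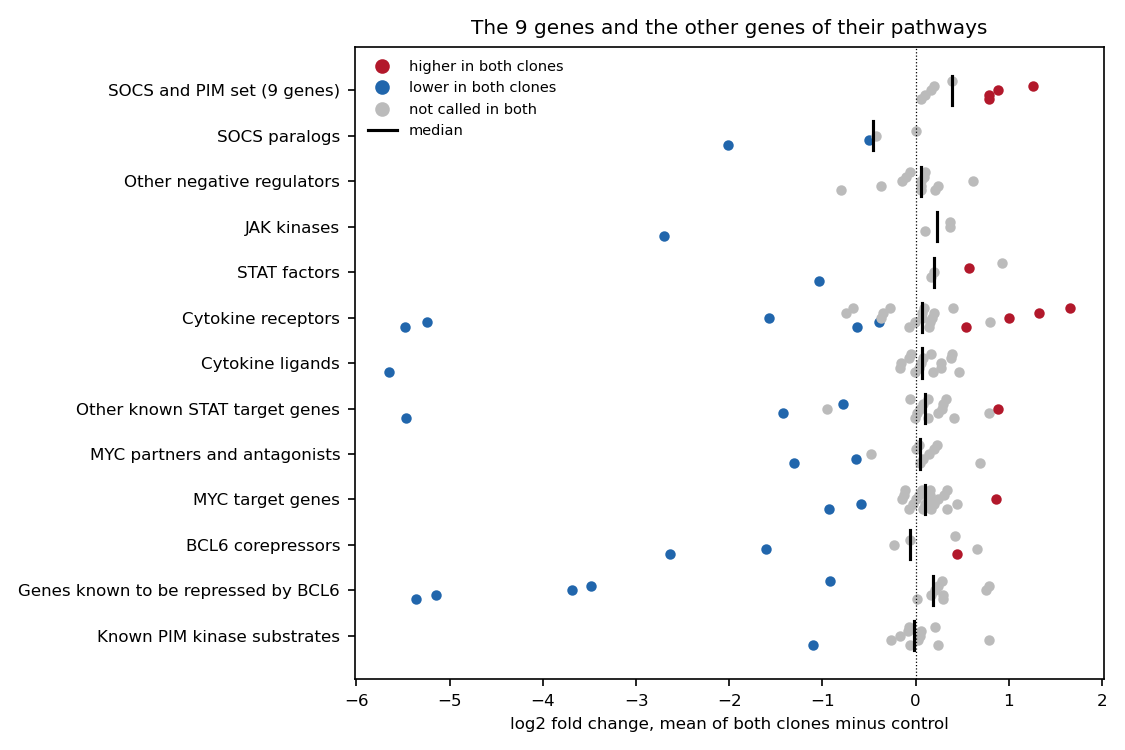
Log2 fold change of the clones averaged against control (horizontal axis) for each measured gene of the 9-gene set and of the 12 pathway lists, 1 row for each list, with the list's median as a bar. Red and blue points were called higher or lower in both clones: 4 red and 0 blue points stand in the top row, and 2 blue points in the row of the other SOCS genes.

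Genes around the transcription factors and kinases of the set were described in the same way. Of 12 known PIM substrates, 1 fell and 0 rose (1 higher at an unadjusted p under 0.05, and 1 called higher without control array 3 or when centred). The fallen gene was MAP3K5, which encodes the stress kinase ASK1 (-1.10, SE 0.10). Of 11 measured partners and antagonists of MYC, 2 fell and 0 rose (1 higher at an unadjusted p under 0.05, and 1 called higher without control array 2 or when centred). MYCL fell by 1.31 and MGA fell by 0.65, and the call of MGA was lost without g2_1 array 1, g2_1 array 2 or control array 3 (adjusted p up to 0.0917). Of 23 measured MYC targets of ribosome biogenesis and metabolism, 1 rose and 2 fell. The transferrin receptor gene TFRC rose by 0.86, SHMT2, an enzyme of mitochondrial one-carbon metabolism, fell by 0.93 and CDK4 fell by 0.58. Without control array 1, 4 of these targets rose.

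Of 7 measured corepressors of BCL6, 2 fell and 1 rose. BCOR, which binds the BCL6 BTB domain, fell by 2.64 (SE 0.21) and MTA3 fell by 1.61 (SE 0.13). HDAC7 rose by 0.44, with the call lost without any g2_1 array, g3_4 array 2, or control array 2 or 3 (adjusted p up to 0.121). Centred, 2 corepressors rose. Of 14 measured genes known to be repressed by BCL6, 5 fell and 0 rose (3 higher at an unadjusted p under 0.05, and 1 called higher without control array 3). Centred, 2 rose and 5 fell, and with a variance trend and robust fit 1 rose and 5 fell. CXCL10 fell by 5.36 as measured, to clone means of 4.53 (g2_1) and 4.61 (g3_4). CD44 fell by 5.15 and CD80, a ligand of T cell costimulation, fell by 3.68. The median log2 fold change of that list was 0.19.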

How the data were processed

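Values were deposited as log2 signals that the authors had made by RMA with Transcriptome Analysis Console (version 4.0), as the submitters' processing notes name it; the genome build is not given in the sources used here. Medians of the tested values were 6.27 to 6.29 on control arrays and 6.15 to 6.19 on clone arrays. Centring on them raised the median log2 fold change over all rows by 0.11. Precision is limited by the number of arrays.

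All 20893 mapped transcript clusters were tested with limma 3.58.1 under R 4.3.3, using lmFit and eBayes with a mean for each group of the 9 arrays, and Benjamini-Hochberg adjustment; 555 rows marked as unmapped were left out. The platform annotation gave a symbol for 17705 rows and none for 3188. Named genes are the members, LTA, the best correlate of each member called in the clones averaged, up to 3 genes per list with the largest change among those called in both clones, and all JAK, STAT and other SOCS genes. MS4A1, CD14, CD68, the CD3 genes and IL7R were added after their values were seen. Members and lists (190 genes, 169 measured) were chosen with earlier results of these data known. The fit was tested on simulated data with independent noise and the same variance in all groups. That test therefore did not cover unequal spread between groups or deviations shared by same-numbered arrays. Alternatives were median centring, a level filter, other samples or rows in the fit, a replicate block, array weights, other variance models and left-out arrays. Levels of different genes are not compared.

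Same-numbered arrays of the clones had correlated deviations (0.435, 0.191 and 0.310), which was taken to pair the clones. Over all groups, arrays of unlike number had values from -0.346 to 0.142. Same-numbered values for control array 1 were 0.285 with g2_1 and 0.298 with g3_4, and for control array 3 they were 0.183 and 0.257. For control array 2 the value was 0.0426 with g2_1 and 0.0565 with g3_4, so the number was not taken to pair control with the clones. Control arrays 1 and 3 still shared deviations with the same-numbered clone arrays.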

Additional observations from a re-analysis of the deposited data

Results flagged for a closer look

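IL7R, the interleukin-7 receptor chain and a gene of the receptor list, was picked out after its values were seen because its change against control differed between the clones. Its log2 signal was 6.99, 6.66 and 6.63 on the control arrays, 8.25, 7.44 and 7.07 in g2_1, and 5.87, 5.11 and 5.15 in g3_4. All g3_4 arrays lay below the control arrays and all g2_1 arrays above them. The difference, g3_4 minus g2_1, was -2.21 (log2, SE 0.28, limma adjusted p = 0.0282, and 0.000532 with the replicate block). That block used the array number for all groups, control included. The difference no longer passed without g2_1 array 2, g3_4 array 2, g3_4 array 3, control array 2 or control array 3 (range over all left-out arrays 0.0113 to 0.187), nor with unequal variances (0.896). Against control, the log2 fold change was 0.83 in g2_1 (adjusted p = 0.0825) and -1.38 in g3_4 (adjusted p = 0.00739).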

How the results depend on the processing

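Of 648 values of a member under an alternative setting, 618 kept their side of the threshold, 25 lost the call, 5 gained it and 0 calls changed sign. The 648 include members and comparisons not called at the outset, which had no call to lose. In g3_4, SOCS2 lost its call in 7 of 18 settings and SOCS3 in 5 of 18. PIM1 and CISH lost theirs in 1 of 18 in each clone. Under the test with unequal variances the number of members called fell from 5 to 0 in g2_1, from 4 to 0 in g3_4, from 5 to 0 in the clones averaged and from 4 to 0 in both clones. Over all transcript clusters, calls under that test fell from 2979 to 31, from 2983 to 65 and from 3751 to 895 in the first 3 of these comparisons. That test does not share variance across genes, and it takes a separate spread for each group. The control SD was larger than both clone SDs for 8 of the 9 members and for 48.4% of all transcript clusters. The part of this difference in the lost calls was not tested. Leaving out 1 array gave 4 to 6 called members in g2_1, 2 to 4 in g3_4, 5 to 5 in the clones averaged, 2 to 4 in both clones and 0 to 0 between the clones. The counts of 2 came without g3_4 array 1, g3_4 array 3 or control array 2. Over the left-out arrays, 2.92% to 4.78% of all transcript clusters were called higher in both clones and 5.56% to 7.21% lower. With all arrays these shares were 4.48% and 6.97%. Shares for the single comparisons are not given for these settings. They are also not given for the fit of only the groups compared or for the replicate block. The member counts of single comparisons under these settings therefore have no background. A fit of only the groups compared left 3 members in g3_4, where SOCS2 had an adjusted p of 0.0618. In that fit 3.1% of all transcript clusters were called higher in both clones and 5.73% lower. With the replicate block, 5 members were called in g2_1, 4 in g3_4, 5 in the clones averaged and 0 between the clones, and it changed no call of a member. With that block 2 other STAT targets, 1 gene repressed by BCL6, 1 PIM substrate, 1 ligand and 1 macrophage marker (CD68, adjusted p = 0.0237 and 0.0124) rose in both clones, and 2 other negative regulators fell. Further, 2 STAT genes, 2 MYC targets, 2 BCL6 corepressors and 2 Hodgkin markers rose, and 6 cytokine receptors fell. Of all transcript clusters, 6.12% rose and 8.29% fell in both clones with the block. Each member has 1 row, so no other row could be tried.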
